A study of Mus musculus with 22 samples.

Results

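Dmbt1, Ang4, Retnlb, Pglyrp1, Itln1, Lyz1, Mptx1 and Mptx2 encode secreted proteins of mucosal defence that are not Reg3 lectins. They were chosen by name, and all 8 had a row among the 23997 rows of the deposited expression table. Their levels were followed in 22 colon libraries of wild type BALB/c mice in 4 groups, every one of which was 5 weeks old at the start and drank its water for 3 weeks. The mice of HMLS (n = 4) and of TM (n = 5) were given 1 of 2 deep sea waters, known here only by these abbreviations, with 5% dextran sulfate sodium (DSS) added in the last week. In the group DSS (n = 5) the same 5% DSS was added in the last week to distilled water, and CON (n = 8) had distilled water alone. DSS is a sulfated polysaccharide that damages the lining of the colon and brings on colitis in mice, so HMLS, TM and DSS are the 3 DSS-treated groups, and no group drank a deep sea water without DSS. The series title places the waters in a study of anti-inflammatory effects. Nothing in the labels says that each library came from its own mouse, so p-values measure the spread between libraries, which may in part be technical.

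The colon keeps bacteria away from its epithelium with mucus and with proteins that bind, aggregate or kill microbes. Goblet cells, Paneth cells and deep crypt secretory cells release many of them at a steady level, and absorptive cells add others after injury. Paneth cells sit at the crypt base of the small intestine and are absent or rare in the healthy mouse colon. Several of the proteins are also made by blood cells. Neutrophils store Pglyrp1 in granules and macrophages make the lysozyme Lyz2, a close relative of Lyz1.

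The 8 genes fall into pattern-binding proteins (Dmbt1, Pglyrp1, Itln1), killing proteins (Ang4, Lyz1, Retnlb) and the mucosal pentraxins Mptx1 and Mptx2. On GRCm38 with GENCODE M21, Dmbt1 lies at chr7:131032053-131121630 on the plus strand and Pglyrp1 at chr7:18871331-18890459 on the plus strand. Itln1 lies at chr1:171518122-171535294 on the minus strand, Mptx1 at chr1:174330518-174332873 on the plus strand and Mptx2 at chr1:173274382-173277777 on the minus strand. Ang4 lies at chr14:51763878-51773590 on the minus strand, Retnlb at chr16:48816856-48818892 on the plus strand and Lyz1 at chr10:117287797-117292868 on the minus strand.

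Some members have a near copy, which bears on how far reads can be assigned to each. The first 150 coding bases of Lyz1 and of Lyz2, its neighbour at chr10:117277331-117282321, are shown 5′ to 3′ from the GENCODE M21 transcripts, with the bases that differ in capitals.
Lyz1: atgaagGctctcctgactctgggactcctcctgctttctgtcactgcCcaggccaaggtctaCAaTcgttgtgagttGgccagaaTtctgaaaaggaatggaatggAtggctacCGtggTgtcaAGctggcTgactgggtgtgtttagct
Lyz2: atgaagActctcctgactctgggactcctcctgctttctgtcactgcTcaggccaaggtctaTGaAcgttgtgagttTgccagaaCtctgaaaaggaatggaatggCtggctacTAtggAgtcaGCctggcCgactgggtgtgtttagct
Within this stretch 14 bases differ. The coding parts are identical at 422 of 444 bases (95.05%), and the longest run that both share is 118 bases. Of the 50-base windows of the Lyz1 transcript, 16.1% also occur in Lyz2, so a read that lies within such a window cannot be assigned by sequence. A longer read or a read pair may reach a base that differs, and the read length was not used here.
The same stretch of the pentraxins holds a single difference.
Mptx1: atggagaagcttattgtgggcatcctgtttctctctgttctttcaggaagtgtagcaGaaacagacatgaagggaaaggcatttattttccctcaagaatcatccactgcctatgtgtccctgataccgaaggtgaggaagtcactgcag
Mptx2: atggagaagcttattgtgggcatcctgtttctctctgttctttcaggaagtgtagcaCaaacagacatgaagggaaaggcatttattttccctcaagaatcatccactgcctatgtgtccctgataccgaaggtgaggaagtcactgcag
Here 149 of 150 bases are the same, and over the whole coding part 92.4% of the aligned bases are. Of the 50-base windows of the Mptx1 transcript, 17.9% also occur in Mptx2. The sources used here do not say how the authors' counting split such reads, so the separate levels of Lyz1 and Lyz2, and of Mptx1 and Mptx2, are uncertain. The Ang4 transcript shared no 50-base window with Ang, its closest relative listed here.

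The likeness of the pentraxins extends upstream of the genes. Of the 8 members, 6 have an entry in the RefSeq promoter table of GRCm38.p6, which gives 250 bases before the start and 50 after it. The promoters of Mptx1 (chr1:174330268-174330567, plus strand) and Mptx2 (chr1:173277707-173278006, minus strand) are shown because their deposited levels moved together across libraries. The part of shared reads in that was not tested.
Mptx1: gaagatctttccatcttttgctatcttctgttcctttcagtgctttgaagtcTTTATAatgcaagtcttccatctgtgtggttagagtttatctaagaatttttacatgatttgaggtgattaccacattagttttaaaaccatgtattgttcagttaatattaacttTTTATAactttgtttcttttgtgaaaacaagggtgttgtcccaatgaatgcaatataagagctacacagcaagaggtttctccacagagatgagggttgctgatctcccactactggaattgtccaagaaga
Mptx2: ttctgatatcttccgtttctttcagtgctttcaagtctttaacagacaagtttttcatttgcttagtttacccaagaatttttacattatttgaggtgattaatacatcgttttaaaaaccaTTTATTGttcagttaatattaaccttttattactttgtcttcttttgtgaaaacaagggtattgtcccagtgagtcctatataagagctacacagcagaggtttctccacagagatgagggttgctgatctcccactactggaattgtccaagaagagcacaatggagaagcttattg
They were identical at 252 of 277 aligned bases (91.0%), with 46 gap positions. Capitals mark the letters found in a search of both strands for 4 motifs. The first was TATAAA, the letters of a TATA box. The second was a HOXB13-type motif, CAATAAA. The others were STAT-type motifs with a spacer of 3 bases, TTCNNNGAA, or of 4 bases. Mptx1 holds TATAAA on the opposite strand at -198 and at -82 from the start, and 13.6% of the 32851 promoters in the table hold it on either strand. These matches are not read as TATA boxes. Only exact letters were searched for, so the tataag that both printed promoters hold on the strand shown is not marked. Mptx2 holds CAATAAA on the opposite strand at -128, against 4.60% of all promoters. Ang4 holds TTCNNNGAA at -192, against 8.30% of all promoters, and none of the 6 holds the STAT-type motif with 4 spacer bases, which 6.95% of all promoters do. TATAAA and CAATAAA both end in ATAAA, and no capitals here mark both at once. A match is only a description of these letters.

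The libraries held 48089882 to 68733410 reads. The share mapped was 88.8% to 90.5% in HMLS, 89.5% to 92.7% in TM, 82.3% to 88.9% in DSS and 89.9% to 91.9% in CON, so DSS and CON did not overlap. Levels were read as FPKM, which scales fragments to the length of the transcript and to the size of the library, and the reads behind each gene's value are unknown. A gene was called at an adjusted p under 0.05 in limma on log2(FPKM + 1), fitted to all genes that reached 1 FPKM in 4 or more of the libraries compared. All 8 members passed this filter in every fit. Fold changes are on that scale, which understates the change of low genes. In bulk tissue, fewer cells of a type and less RNA per cell cannot be told apart. Epcam, an epithelial marker, was at 673 to 833 FPKM in HMLS, 619 to 816 FPKM in TM, 679 to 923 FPKM in DSS and 617 to 891 FPKM in CON. Other epithelial genes were called higher against CON in HMLS, TM and DSS. Cldn7 was at 0.92, 0.74 and 0.90 on the log2 scale, Cdh1 at 0.71, 0.65 and 0.74, and Ceacam1 at 0.97, 0.67 and 1.04. They come from a colonocyte list in which 0, 2 and 1 genes were called lower. The part of the epithelial share in the members' levels was not tested. The Paneth cell list held 21 genes of the table, of which 10, defensin genes among them, were at 0 in every library. Others were detected, with Mmp7 at 1.79 to 22.4 FPKM over all 22 libraries. The list summed to 384 to 1191 FPKM in HMLS, 599 to 1679 FPKM in TM, 358 to 2487 FPKM in DSS and 555 to 861 FPKM in CON.

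CON replicate 1 stood apart. At least 10 FPKM, and at least 5 times the level of every other library, was reached in it by 7 genes, chosen after their values were seen, namely Ang4, Itln1, Mptx1, Mptx2, Hoxb13, Tgm3 and Atp12a. The same count was 14 in TM replicate 8 and 0 to 4 in each of the other libraries. Hoxb13, a homeobox gene of the posterior body axis, was at 63.0 FPKM in CON replicate 1 and at most at 0.659 FPKM elsewhere. Tgm3, a transglutaminase, was at 22.2 FPKM there and at most at 0.856 FPKM elsewhere. Reg4, a marker of deep crypt secretory cells, was at 315 FPKM there, against 9.53 FPKM as the median of the other 7 CON libraries. High Reg4 was not particular to that library, with 707 FPKM in TM replicate 3, 396 FPKM in HMLS replicate 6 and 131 FPKM in DSS replicate 6. The part of these differences in the results was not tested, and results that rest on this library are given with and without it.

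**Figure D1:**
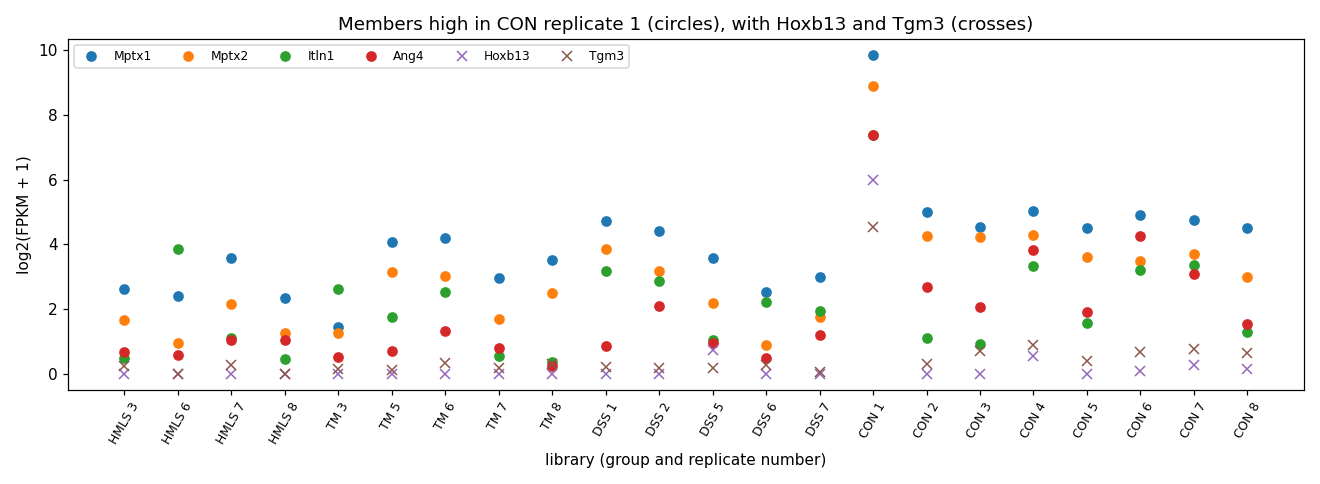
Level of Mptx1, Mptx2, Itln1 and Ang4 (circles) and of Hoxb13 and Tgm3 (crosses) as log2(FPKM + 1) on the y axis in each of the 22 libraries on the x axis. All 6 genes peak in CON replicate 1, where Mptx1 reached 928 FPKM against at most 31.5 FPKM elsewhere.

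Against CON, 4 of the 8 members were called in HMLS, 3 in TM and 3 in DSS. Over all genes tested 34.1% were called in HMLS, 26% in TM and 27.1% in DSS, so the members' shares lie near the background in counts this small. By direction, 1 member was higher and 3 were lower in HMLS, against 17.5% of all genes higher and 16.6% lower. In TM 2 were higher and 1 lower, against 14.3% of all genes higher and 11.8% lower. In DSS 2 were higher and 1 lower, against 14% of all genes higher and 13.1% lower. The 3 comparisons share the CON libraries and are not independent of each other. Among all genes, scaling to the 75th percentile shifted the split, to 1671 higher and 3021 lower in HMLS (2339 and 2226 without scaling), to 1452 and 2237 in TM (1924 and 1586) and to 1361 and 2595 in DSS (1889 and 1766). With CON replicate 1 left out, 5 members were called in HMLS (30.5% of all genes), 5 in TM (23% of all genes) and 6 in DSS (22.3% of all genes). The calls added were of Ang4, Mptx1 or Mptx2, which are among the genes that set that library apart. These counts are therefore no test of the members against the background.

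**Figure D2:**
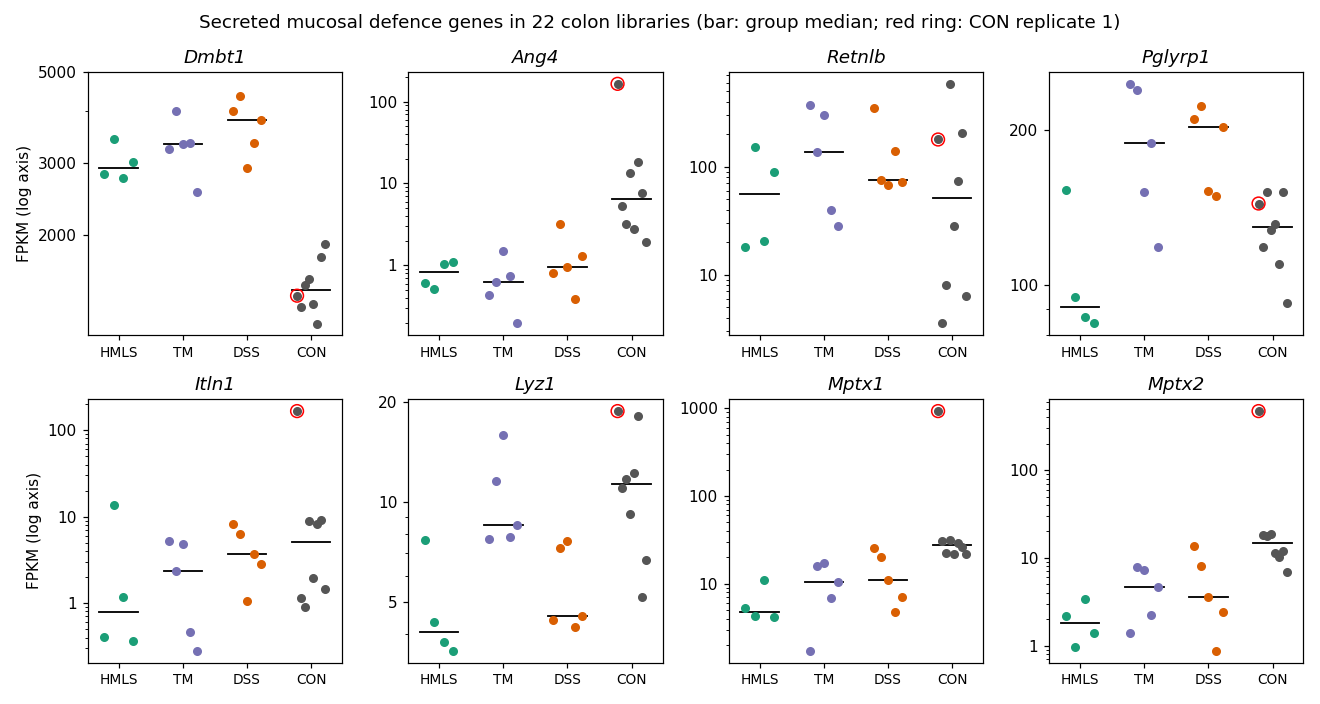
FPKM on a log y axis for each of the 8 genes in the libraries of HMLS, TM, DSS and CON on the x axis. Each point is 1 library, the bar is the group median and the red ring marks CON replicate 1. Dmbt1 points of the 3 DSS-treated groups sit at 2535 to 4367 FPKM, above all CON points at 1209 to 1894 FPKM.

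Dmbt1 was the most abundant of the 8 and the only one called in the same direction against CON in HMLS, TM and DSS. It encodes a large secreted scavenger receptor glycoprotein that binds and agglutinates bacteria. Dmbt1 was at 2808, 3417, 2755 and 3008 FPKM in HMLS. It was at 3235, 4008, 3340, 3353 and 2535 FPKM in TM. In DSS it was at 4002, 4367, 2910, 3352 and 3821 FPKM, and in CON it ranged 1209 to 1894 FPKM with a median of 1459. Every library of the DSS-treated groups lay above every CON library. Genes whose groups did not overlap in the higher direction made up 7.81% of those tested in HMLS, 4.66% in TM and 4.13% in DSS. Dmbt1 rose 2.01-fold in HMLS (log2 fold change 1.0 ± 0.125 SE, limma adjusted p = 0.00017) against CON. It rose 2.19-fold in TM (1.13 ± 0.133, adjusted p = 0.000114) and 2.46-fold in DSS (1.30 ± 0.131, adjusted p = 0.0001), in 4 of 4, 5 of 5 and 5 of 5 libraries. By the exact two-sided permutation test its p was 0.00202 in HMLS and 0.000777 in TM and in DSS, the smallest that these group sizes can give.

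Dmbt1 held its call when any single library was left out, with log2 fold changes of 0.94 to 1.05 in HMLS, 1.06 to 1.22 in TM and 1.23 to 1.38 in DSS. It was also called with the share of mapped reads as a covariate (0.87 in HMLS, 1.17 in TM, 1.25 in DSS). Among all genes Dmbt1 ranked 14 by mean level in HMLS, 9 in TM, 10 in DSS and 23 in CON. It made up 0.548% to 0.675% of the summed FPKM in HMLS, 0.500% to 0.853% in TM, 0.592% to 0.804% in DSS and 0.284% to 0.377% in CON. Its spread within groups was small, with an SD of 0.213 on the log2 scale, the 34.7th percentile of 13104 genes. Between the DSS-treated groups no difference was called. HMLS was lower than DSS by 0.29 on the log2 scale (95% interval -0.61 to 0.03), TM was at -0.16 against DSS (-0.47 to 0.14), and HMLS was at -0.13 against TM (-0.45 to 0.20).

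Pglyrp1, which encodes a peptidoglycan recognition protein, was called higher in TM and in DSS and not in HMLS. It was at 152, 94.9, 86.6 and 84.3 FPKM in HMLS. In TM it was at 245, 239, 152, 188 and 118 FPKM. In the DSS group Pglyrp1 was at 210.2, 222, 152, 149 and 203 FPKM, and in CON it ranged 92.1 to 151 FPKM with a median of 129.7. The groups overlap, and 3 of the 4 HMLS libraries lay below every DSS and every TM library, with HMLS replicate 3 apart from them.

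Pglyrp1 rose 1.43-fold in TM (log2 fold change 0.52 ± 0.173 SE, adjusted p = 0.0383) and 1.45-fold in DSS (0.54 ± 0.142, adjusted p = 0.0129). In HMLS its log2 fold change was -0.32 ± 0.167 (adjusted p = 0.152), and it became -0.51 with an adjusted p of 0.0187 without HMLS replicate 3. The TM call was lost on leaving out TM replicate 3, 5 or 7 or CON replicate 2, 4, 5, 6 or 8 (adjusted p 0.0538 to 0.112), and the DSS call held on leaving out any library. The TM call was also lost under 75th percentile scaling (adjusted p = 0.0713) and quantile normalization (0.0808), and the DSS call under quantile normalization (0.0591) and with the share of mapped reads as a covariate (0.389).

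Pglyrp1 also gave the lowest unadjusted p of the members in HMLS against DSS, where it was rank 19 of 13341 genes. It was lower in HMLS by 0.86 on the log2 scale (95% interval -1.35 to -0.36, unadjusted p = 0.00218, adjusted p = 0.849). The difference from TM was -0.84 (-1.33 to -0.34, adjusted p = 0.407). TM and DSS were at -0.02 (-0.49 to 0.44). Neutrophils are known to hold this transcript's protein. The 24 genes of the neutrophil list summed to 5.46 to 33.0 FPKM in HMLS, 11.9 to 115 FPKM in TM, 5.52 to 90.5 FPKM in DSS and 4.37 to 7.61 FPKM in CON, and the part of neutrophils in the Pglyrp1 level was not tested. Of this list's members tested against CON, 1 was higher and 1 lower of 2 in HMLS, 3 higher and 0 lower of 4 in TM, and 3 higher and 1 lower of 4 in DSS. S100a8 was higher in each, and the neutrophil gene Retnlg was 4.05-fold higher in TM and 2.87-fold higher in DSS. In HMLS against CON, Retnlg and S100a9 missed the filter on low values and were not tested. Retnlg was at 0 to 4.14 FPKM in HMLS and at most at 0.211 FPKM in CON. S100a9 was at 0 to 10.6 FPKM in HMLS and at most at 0.397 FPKM in CON. The lower gene of the list in HMLS was Csf1, a growth factor gene of the macrophage lineage, at -0.72 (adjusted p = 0.00183).

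Itln1 encodes intelectin 1, a lectin that binds sugars of microbial surfaces. It was at 0.408, 13.5, 1.16 and 0.364 FPKM in HMLS. It was at 5.22, 2.36, 4.78, 0.469 and 0.283 FPKM in TM. The DSS libraries had 8.13, 6.26, 1.07, 3.70 and 2.87 FPKM, and CON ranged 0.907 to 166 FPKM with a median of 5.14. CON replicate 1 alone held 166 FPKM, and the other 7 CON libraries stayed at 9.21 FPKM or below. No call was made, with log2 fold changes of -1.29 ± 1.198 in HMLS, -1.21 ± 1.01 in TM and -0.51 ± 0.956 in DSS. The direction in DSS turned to 0.14 ± 0.530 without CON replicate 1 (adjusted p = 0.864).

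Ang4, a bactericidal protein of the ribonuclease A family made by secretory cells of the crypt, lay at about 1 FPKM in the DSS-treated groups. It was at 0.611, 0.513, 1.05 and 1.09 FPKM in HMLS. It was at 0.437, 0.621, 1.48, 0.738 and 0.196 FPKM in TM. DSS libraries held 0.814, 3.24, 0.957, 0.393 and 1.29 FPKM of Ang4, and in CON it ranged 1.92 to 165 FPKM with a median of 6.48. All libraries of HMLS and TM lay below all CON libraries, and in DSS 4 of 5 did, DSS replicate 2 being the exception. Groups that did not overlap in the lower direction were found for 7.21% of the genes tested in HMLS and 3.4% in TM.

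Against CON, Ang4 passed the filter on low values only with the CON libraries, where it is high. Ang4 fell in TM (log2 fold change -2.63 ± 0.826 SE, adjusted p = 0.0352). In HMLS its change was -2.50 ± 0.938 (adjusted p = 0.0615) and in DSS -2.23 ± 0.817 (adjusted p = 0.0594). Without CON replicate 1, which Ang4 itself helped to set apart, it was called lower in all 3 groups, by a smaller amount. It was then at -1.92 in HMLS (adjusted p = 0.0113), -2.05 in TM (0.00697) and -1.65 in DSS (0.0198), which is no independent test. It was called in HMLS (0.0431) and in DSS (0.0402) also without CON replicate 8. The TM call was lost without any one of the 5 TM libraries or CON replicate 4 or 6 (adjusted p 0.0503 to 0.0807). Of its relatives, Ang fell with an adjusted p of 0.00063 in HMLS (-0.91), 0.000803 in TM (-0.91) and 0.0026 in DSS (-0.90). Rnase4 fell in HMLS (-0.89, adjusted p = 0.000194) and in DSS (-0.84, 0.00152). It was not among the 3 genes of smallest p of its list in TM, so no TM value is given, which does not mean no change.

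Lyz1, the lysozyme of mouse Paneth cells, was called lower in HMLS and DSS and not in TM. It was at 7.70, 4.36, 3.78 and 3.57 FPKM in HMLS. It was at 7.75, 11.6, 16.0, 7.85 and 8.52 FPKM in TM. In DSS it was at 4.42, 7.25, 7.63, 4.21 and 4.54 FPKM, and in CON it ranged 5.19 to 18.8 FPKM with a median of 11.4. Every TM library lay above every HMLS and every DSS library. Genes with such separation made up 2.2% of those tested for HMLS below TM and 0.3% for TM above DSS.

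On the log2(FPKM + 1) scale Lyz1 fell to 0.478 times its CON level in HMLS (log2 fold change -1.06 ± 0.291 SE, adjusted p = 0.0135) and to 0.546 in DSS (-0.87 ± 0.258, adjusted p = 0.023). In TM it was at -0.11 ± 0.269 (adjusted p = 0.794). The calls were lost without HMLS replicate 8 (adjusted p = 0.0512) or DSS replicate 7 (0.0574), and with the share of mapped reads as a covariate (0.108 in HMLS, 0.543 in DSS). Between DSS-treated groups Lyz1 was higher in TM than in DSS by 0.76 ± 0.232 (95% interval 0.27 to 1.26, rank 25 of 13341 by p, adjusted p = 1). In HMLS it was lower than in TM by 0.96 on the log2 scale (-1.48 to -0.43, rank 48, adjusted p = 0.407). The exact two-sided permutation p of each was 0.00794, the smallest these group sizes allow, while neither passed the adjustment over all genes.

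Lyz2 had the same order of groups. It was at 21.1 to 54.5 FPKM in HMLS, 62.4 to 117 FPKM in TM, 29.0 to 49.7 FPKM in DSS and 46.3 to 112 FPKM in CON. Its log2 fold change was -1.28 in HMLS (adjusted p = 0.00242), 0.00 in TM (0.990) and -1.01 in DSS (0.00337). Lyz1 stood at 0.0961 to 0.210 of the Lyz2 level in all 22 libraries, with a median of 0.142 in HMLS, 0.132 in TM, 0.145 in DSS and 0.143 in CON. Lyz2 is itself in the macrophage list and a large part of its sum. Without Lyz2, a choice made after the values were seen, the other 16 genes of that list summed to 52.4 to 88.4 FPKM in HMLS, 116.9 to 177 FPKM in TM, 66.5 to 144 FPKM in DSS and 64.2 to 124 FPKM in CON. Against CON, 0 of the 15 of them tested were higher and 8 lower in HMLS, 2 higher and 1 lower in TM, and 1 higher and 3 lower in DSS. The part of Lyz2 reads or of macrophages in the Lyz1 level was not tested. Of the Paneth list, 10 genes, defensins among them, were at 0 throughout, while Mmp7 of the same list was at 1.79 to 22.4 FPKM. The part of Paneth cells in the Lyz1 level was not tested. Of the Paneth genes tested, 1 was higher and 3 lower of 7 in HMLS, 0 and 1 of 8 in TM and 0 and 2 of 7 in DSS. The list medians were 0.02, -0.04 and -0.12. The colipase gene Clps was lower in all 3 and the transcription factor gene Sox9 in HMLS and DSS. The higher one in HMLS was the receptor gene Fgfrl1 at 0.61 (adjusted p = 0.00728).

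**Figure D3:**
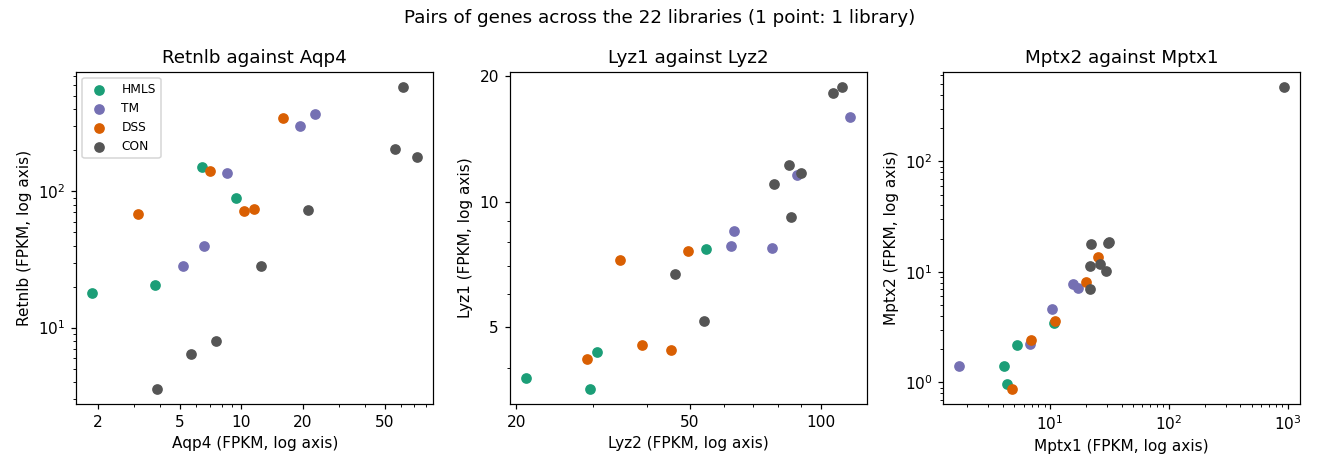
FPKM on log axes of Retnlb against Aqp4, Lyz1 against Lyz2 and Mptx2 against Mptx1, each point being 1 of the 22 libraries, coloured by group. Lyz1 stays at 0.0961 to 0.210 of Lyz2, and the isolated point of the pentraxin panel is CON replicate 1 at 928 and 472 FPKM.

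Retnlb, the bactericidal goblet cell protein RELM-beta, varied widely between the libraries of every group. It was at 18.0, 152, 20.7 and 89.9 FPKM in HMLS. It was at 370.5, 136, 304, 39.9 and 28.1 FPKM in TM. Its DSS levels were 349, 74.5, 68.3, 141 and 71.9 FPKM, and in CON it ranged 3.55 to 585 FPKM with a median of 50.9. The highest CON library was 165 times the lowest, and all 4 groups overlap. No comparison with CON was called, at 0.15 ± 1.40 in HMLS (adjusted p = 0.944), 1.36 ± 1.28 in TM (0.460) and 1.37 ± 1.18 in DSS (0.410). The 95% intervals ran from -2.95 to 3.26 in HMLS, -1.45 to 4.17 in TM and -1.22 to 3.95 in DSS, so a change of 2-fold in either direction lies within each of them. The direction in HMLS turned on leaving out single libraries, with a range of -0.40 to 0.68. Against DSS it was at -1.21 in HMLS (95% interval -3.04 to 0.61) and -0.01 in TM (-1.73 to 1.72).

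The type 2 cytokine list, whose interleukins are known to induce Retnlb, had 1 higher and 1 lower member in each comparison with CON, of 12 tested in HMLS, 13 in TM and 13 in DSS. The higher one was Il4ra, the receptor chain of interleukins of this axis, at 0.52, 0.996 and 0.91 in HMLS, TM and DSS on the log2 scale. The lower one was the tuft cell gene Dclk1, at -0.59, -0.72 and -0.57. The goblet cell list, whose cells make Retnlb, had 2 members higher and 11 lower of 26 in HMLS, 4 and 2 in TM and 4 and 1 in DSS. Muc2, the gel-forming mucin, was among the lower ones in HMLS at -1.24 (adjusted p = 0.00169).

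The mucosal pentraxins Mptx1 and Mptx2, secreted relatives of C-reactive protein and serum amyloid P, were called lower in HMLS. Mptx1 was at 5.23, 4.33, 10.9 and 4.13 FPKM in HMLS. It was at 1.73, 15.7, 17.3, 6.78 and 10.4 FPKM in TM. In DSS it was at 25.4, 20.3, 11, 4.74 and 6.97 FPKM, and in CON it ranged 21.7 to 928 FPKM with a median of 27.8. The 7 CON libraries other than replicate 1 kept within 21.7 to 31.5 FPKM, and every HMLS and TM library and 4 of 5 DSS libraries lay below them. Genes that did not overlap with CON in the lower direction made up 7.21% of those tested in HMLS and 3.4% in TM.

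Mptx2 was at 2.17, 0.960, 3.43 and 1.40 FPKM in HMLS. It was at 1.40, 7.85, 7.22, 2.23 and 4.66 FPKM in TM. In DSS it was at 13.6, 8.04, 3.57, 0.877 and 2.42 FPKM, and in CON it ranged 6.96 to 472 FPKM with a median of 14.8. All HMLS libraries lay below all CON libraries, as for 7.21% of the genes tested, and TM and DSS overlapped CON. In HMLS against CON, Mptx2 passed the filter on low values only with the CON libraries.

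With all CON libraries, Mptx1 fell in HMLS by 2.65 on the log2 scale (SE 0.932, adjusted p = 0.0498) and Mptx2 by 2.92 (SE 0.945, adjusted p = 0.0359). The corresponding changes were -2.15 (adjusted p = 0.0935) and -2.11 (0.0927) in TM and -1.74 (0.139) and -2.05 (0.102) in DSS. CON replicate 1 was singled out by the values of these same genes, so leaving it out is no independent test of them. Without it the log2 fold changes were smaller and the errors smaller still, and both genes were called in all 3 groups. Mptx1 was then at -2.01 ± 0.203 in HMLS (adjusted p = 0.000118), -1.52 ± 0.388 in TM (0.0166) and -1.11 ± 0.312 in DSS (0.0232). Mptx2 was at -2.29 ± 0.268 in HMLS (adjusted p = 0.000269), -1.47 ± 0.340 in TM (0.00983) and -1.41 ± 0.429 in DSS (0.0329). In means of FPKM without that library, CON was 4.28 times HMLS, 2.52 times TM and 1.92 times DSS for Mptx1, and 6.82, 2.91 and 2.38 times for Mptx2.

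The HMLS call of Mptx1 was lost on leaving out any one library other than CON replicate 1 (adjusted p 0.0534 to 0.117). That of Mptx2 was lost without any one of the 4 HMLS libraries or CON replicate 2, 3 or 4 (0.0517 to 0.0882). Between the DSS-treated groups neither gene was called. HMLS was lower than DSS by 0.90 for Mptx1 (95% interval -2.07 to 0.27) and by 0.87 for Mptx2 (-2.01 to 0.27), both on the log2 scale. TM was at -0.41 (-1.51 to 0.69) and -0.06 (-1.13 to 1.02) against DSS. The Mptx1 level was 1.24 to 5.41 times that of Mptx2 across all libraries. Of 9 genes of the deep crypt secretory list, 5 were lower in HMLS, 2 in TM and 3 in DSS and none higher, with Cd24a lower in all 3 at -1.77, -1.58 and -1.40.

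**Figure D4:**
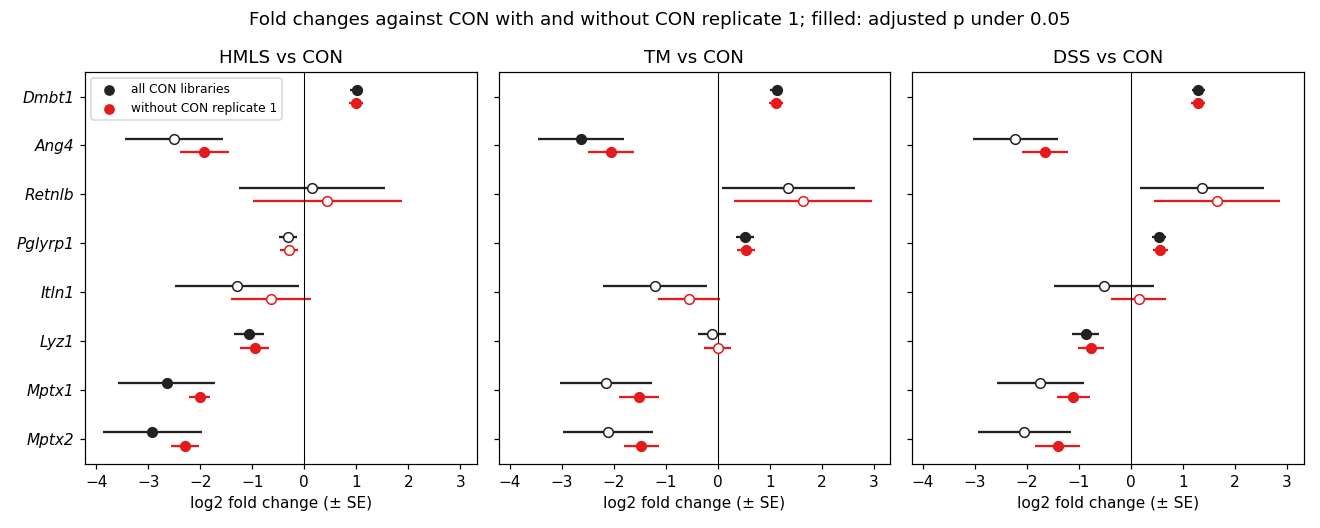
Log2 fold change of FPKM + 1 (x axis, ± SE) of the 8 genes (y axis) in HMLS, TM and DSS against CON, with all CON libraries in black and without CON replicate 1 in red. Filled points have an adjusted p under 0.05. Without that library, Ang4, Mptx1 and Mptx2 are filled in all 3 panels. These 3 genes are among those that set that library apart, so this is no independent test.

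The waters were compared with DSS and with each other in a fit of the 3 DSS-treated groups. HMLS against DSS, TM against DSS and HMLS against TM gave 0 called genes of 13341 by limma (0% each), so none of the 8 members was called. An unadjusted p under 0.05 was found for 740 genes (5.55%) in HMLS against DSS, 367 (2.75%) in TM against DSS and 1260 (9.44%) in HMLS against TM. Among the members this was the case for Pglyrp1 in HMLS against DSS, Lyz1 in TM against DSS, and Pglyrp1 and Lyz1 in HMLS against TM. The missing calls do not show that the members were alike in these groups.

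**Figure D5:**
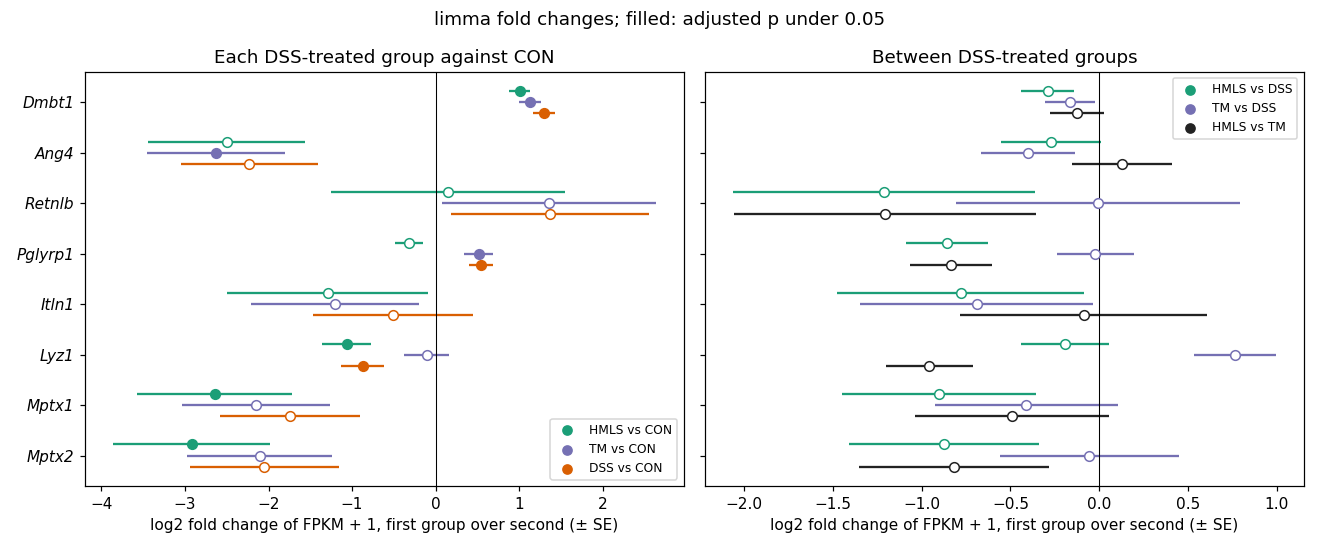
Log2 fold change of FPKM + 1 (x axis, first group over second, ± SE) of each gene (y axis) for HMLS, TM and DSS against CON on the left and between the DSS-treated groups on the right. Filled points have an adjusted p under 0.05. Dmbt1 is filled for all 3 groups on the left at 1.0 to 1.30, and no point is filled on the right.

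The members did not vary as one group within conditions. Deviations from the group means of log2(FPKM + 1) over the 22 libraries were compared as a description. Mptx1 and Mptx2 were the closest pair (Pearson r = 0.96, 0.89 without CON replicate 1), followed by Ang4 and Mptx1 at 0.80 (0.36 without it). Retnlb and Itln1 were at 0.73, and at 0.80 without it. How far reads shared by Mptx1 and Mptx2 raise the r of that pair was not tested. Dmbt1 and Mptx1 were at 0.00, and Dmbt1 and Lyz1 at -0.38. The SD within groups lay at the 99.3rd to 99.8th percentile of 13104 genes for Ang4, Retnlb, Itln1, Mptx1 and Mptx2, at the 90.4th for Lyz1 and at the 72.3rd for Pglyrp1. Without CON replicate 1 the SD on the log2 scale was 0.705 for Ang4 (1.22 with it), 0.754 for Mptx1 (1.34) and 0.782 for Mptx2 (1.36), at the 97.1st to 97.8th percentile, while Itln1 (1.16, against 1.62 with it) and Retnlb (1.94, against 1.95) lay at the 99.3rd and 99.7th.

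Among all 13104 genes with a mean of at least 1 FPKM, the genes closest to each member by this r differed. For Dmbt1 they were Tmc4 (0.81), Tjp3 (0.77) and Atp5d (0.76). For Pglyrp1 they were Map1s (0.87), Piezo1 (0.81) and Ndst1 (0.80). Retnlb was closest to the water channel gene Aqp4 (0.92, and 0.93 without CON replicate 1), then to Spink3 (0.83) and Sval1 (0.81). Aqp4 was at 1.88 to 9.44 FPKM in HMLS, 5.21 to 22.9 FPKM in TM, 3.13 to 15.9 FPKM in DSS and 3.86 to 72.0 FPKM in CON. Itln1 was closest to Pdp2 (0.84), Htr4 (0.79) and Sval1 (0.79), which became 0.65, 0.52 and 0.60 without CON replicate 1. Among the genes closest to Lyz1 were the leukocyte genes Hvcn1 (0.89) and Dock2 (0.85). Ang4, Mptx1 and Mptx2 were closest to Tgm3 and Hoxb13 and to each other, and the r with Hoxb13 fell to 0.23 for Ang4, 0.04 for Mptx1 and -0.01 for Mptx2 without CON replicate 1. The points of each pair share their library, its depth and its piece of tissue.

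Other secreted defence genes give the setting. In the Reg lectin list 3 genes were higher and none lower in each comparison with CON, of 5, 5 and 4 tested in HMLS, TM and DSS, with medians of 1.53, 1.92 and 2.90 on the log2 scale against 0.00, 0.01 and -0.01 over all genes. Reg3b, the largest of them, was at 2.88 in HMLS, 3.28 in TM and 4.02 in DSS, so the 1.0 to 1.30 of Dmbt1 was smaller on this scale. Of other secreted defence genes, 8 were higher and 2 lower of 22 in HMLS, 10 and 0 of 24 in TM and 10 and 1 of 24 in DSS. Lcn2, the siderophore-binding lipocalin, was 12.5-fold higher in TM, and Saa3, a serum amyloid A protein, was 11.3-fold higher in DSS and 5.96-fold higher in HMLS. Each is given only where it was among the 3 genes of smallest p in its list. A group not named for a gene is therefore not one without a change. The IL-22 and IL-17 list holds these cytokines, their receptors, signalling genes and target genes, and 5 of its 28 genes are also in the 2 lists just given. It had 9 higher and 1 lower of 19 in HMLS, 13 and 2 of 20 in TM and 12 and 1 of 20 in DSS. Without those 5 genes, a choice made after the values were seen, it had 5 higher and 1 lower of 15 in HMLS, 8 and 2 in TM and 7 and 1 in DSS. Stat3, the transcription factor downstream of IL-22, was higher at 0.62, 0.89 and 0.90. The family relatives list had 0 higher and 3 lower of 6 in HMLS, 2 and 3 of 7 in TM and 1 and 4 of 7 in DSS.

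Lists of other cells in the samples were counted the same way. The colonocyte list had 5 higher and 0 lower of 21 in HMLS, 5 and 2 in TM and 7 and 1 in DSS. Smooth muscle genes had 0 higher and 0 lower of 14 in HMLS, 0 and 5 in TM and 0 and 4 in DSS. Adipocyte genes had 2 higher and 3 lower of 14 in HMLS, 0 and 8 in TM and 1 and 9 in DSS, and their sum was 230.0 to 699 FPKM in HMLS, 188 to 362 FPKM in TM, 201 to 321 FPKM in DSS and 259 to 1677 FPKM in CON. Small intestine genes had 1 higher and 1 lower of 12 in HMLS, 0 and 1 in TM and 1 and 1 in DSS. Pancreatic acinar genes had 0 higher and 3 lower of 6 in HMLS, 1 and 3 of 7 in TM and 0 and 3 of 6 in DSS. The part of these tissue differences in the members' levels was not tested.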

How the data were processed

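Colon RNA of 22 libraries was measured. Per the labels' protocols, Trizol was used for extraction and a TruSeq stranded kit for total RNA gave the libraries. Without settings, the submitters' processing notes list bcl2fastq 2.20, Bowtie, TopHat2 2.0.13, Cufflinks 2.2.0 and the build mm10. The deposited table names no unit, and the deposited values were read as FPKM because the submitters' processing notes name Cufflinks, which gives that unit. FPKM divides by a library's own total, so very abundant genes that rise lower all others. The authors also deposited a count of reads and of mapped reads and the percent mapped of each library. Read counts of single genes were not used here, no count test was run, and precision rests on the number of libraries.

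The test was limma 3.58.1 (R 4.3.3, intensity trend, robust variance) on log2(FPKM + 1), with Benjamini-Hochberg adjustment over all genes and a threshold of 0.05. Genes had to reach 1 FPKM in 4 or more libraries of a fit. For comparisons with CON a fit held only the 2 groups compared, and the other 3 comparisons shared a fit of HMLS, TM and DSS. The code was tested on simulated data. Groups came from the labels, and no 2 libraries were identical. The members and the 15 gene lists were chosen with earlier results of these data known. All 8 members were named, with up to 3 genes of the smallest p per list and comparison, close relatives, and the 3 genes of most similar pattern per member, of which 1 is not reported here. List genes without a row were not analysed here. Replicate numbers in the titles were checked for pairing. In TM against DSS the 3 pairs of equal number correlated at 0.143 to 0.438 after group means were removed. These numbers thus pair by the rule used (every pair over 0.1), although the labels give no shared source. Both samples of a number correlated best with each other in only 1 of the 3 pairs. A fit with these numbers as a block called 0 genes too, and the TM against DSS values in the Results are from the fit without it. Alternatives were another pseudocount (0.1), no filter, other scalings, a plain variance, all 4 groups in one fit, the mapped share as a covariate, the replicate block and leaving out each library. Positions are GENCODE M21 on GRCm38, the assembly that mm10 names.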

Additional observations from a re-analysis of the deposited data

Results flagged for a closer look

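A library far above the others of its group was found in 9 of the 32 sets of values (8 genes in 4 groups). Chance flags about 1 in 20 such sets when values are normally distributed, which FPKM, being skewed, need not be. On the log2(FPKM + 1) scale, tried after the values were seen, 4 of the 9 still stood as far apart, those of CON replicate 1. CON replicate 1 accounts for 4 of them. It held Ang4 at 164.8 FPKM against 18.2 FPKM in the next CON library, Itln1 at 165.9 against 9.21, Mptx1 at 927.6 against 31.5 and Mptx2 at 472.1 against 18.8. These are also the 4 members among the 7 genes that stand apart in that library.

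Retnlb was at 585.0 FPKM in CON replicate 4, against 205 in the next CON library, and at 348.6 FPKM in DSS replicate 1, against 141 in the next DSS library. In HMLS, 3 of the 4 libraries were high for 1 gene each. HMLS replicate 3 held Pglyrp1 at 152.5 FPKM against 94.9 in the next, HMLS replicate 6 held Itln1 at 13.5 FPKM against 1.16, and HMLS replicate 7 held Mptx1 at 10.9 FPKM against 5.23. With 4 libraries in HMLS, 1 library carries much of the group mean.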

How the results depend on the processing

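Dmbt1 kept its direction and its call against CON under every alternative run. With the mapped share as a covariate, DSS against CON gave 26 called genes and 1 called member, and HMLS against CON 1 called member; DSS and CON do not overlap in that share. With all 4 groups in one fit 5 members were called in DSS against CON. The replicate block gave 2176 called genes in DSS, 753 in HMLS and 2000 in TM against CON. Equal numbers correlated at -0.211 to 0.335, -0.125 to 0.0797 and -0.00138 to 0.208 there, so these numbers do not pair by the rule used. Both samples of a number correlated best with each other in 2 of 5, 0 of 4 and 1 of 5 pairs. Whether single pairs share a source is not in the labels. Under the block the log2 change turned to 0.00528 for Lyz1 in TM against CON. In HMLS against DSS it turned to 0.0928 for Ang4, 0.0648 for Itln1, 0.34 for Mptx1 and 0.32 for Mptx2, none of them called. In TM against DSS it turned to 0.0477 for Dmbt1, 0.46 for Retnlb, 0.12 for Pglyrp1, 0.17 for Itln1, 0.61 for Mptx1 and 0.93 for Mptx2, none of them called, and it changed no call there. Retnlb turned to -2.01 in HMLS against CON with the covariate and to 0.0106 in TM against DSS under 75th percentile scaling. Quantile normalization turned Dmbt1 to 0.0649 and Pglyrp1 to 0.0523 in TM against DSS, and Itln1 to 0.0224 in HMLS against TM. The cause of these turns was not tested.

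On leaving out 1 library, called members ranged 1 to 5 in HMLS, 1 to 5 in TM and 2 to 6 in DSS against CON. Called genes ranged 3106 (without HMLS replicate 8) to 4808, 2501 (without TM replicate 5) to 4170 and 2493 (without DSS replicate 7) to 4166. Called genes ranged 0 to 1 in HMLS against DSS and 0 to 3 in HMLS against TM. The direction turned within -0.78 to 0.14 for Itln1 in DSS against CON and -0.40 to 0.68 for Retnlb in HMLS against CON. In TM against DSS it turned within -0.44 to 0.48 for Retnlb, -0.13 to 0.13 for Pglyrp1, -0.69 to 0.0371 for Mptx1 and -0.43 to 0.31 for Mptx2, and in HMLS against TM within -0.88 to 0.25 for Itln1. Of single members against CON, Mptx1 in HMLS (adjusted p = 0.0602) and Pglyrp1 in TM (0.0584) lost their calls without the filter, and Lyz1 in HMLS under the block (0.0639). With the covariate Ang4 in TM (0.0577) and Mptx1 (0.0926) and Mptx2 (0.0635) in HMLS lost theirs too. Ang4 in HMLS and DSS was called with the pseudocount of 0.1, the plain variance and all groups in one fit (adjusted p 0.0122 to 0.0421). Mptx1 in TM (0.0467) and Mptx2 in DSS (0.0446) were called in the one fit, and Mptx2 in DSS under the block (0.0215). The number of reads behind the low levels, such as those of Ang4 in the DSS-treated groups, is unknown.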
